A study of Homo sapiens with 40 samples.

Results

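Chromatin at 9 genes through which a beta cell takes up and senses glucose (SLC2A1, SLC2A2, SLC2A3, HK2, G6PC2, PFKFB2, PC, MLXIPL and TXNIP) was compared between senescent and non-senescent EndoC-βH3 cells. These genes were chosen by name. Each peak of H3K27ac, the acetylated histone that marks active regulatory DNA, and of CTCF, a DNA-binding protein that anchors chromatin loops, was assigned to one of these genes under 3 classes. A promoter peak lay within 2 kb of a start site in GENCODE 44, a gene body peak lay elsewhere inside the gene, and a distal peak lay outside with its nearest protein-coding start site, within 100 kb, in one of the 9 genes. Distances run to the nearest annotated start site of the gene unless the main one is named. This gave 28 of the 51489 H3K27ac peaks (9 promoter, 11 gene body and 8 distal) and 27 of the 51457 CTCF peaks (6 promoter, 11 gene body and 10 distal).

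EndoC-βH3 is a single human beta-cell line made from fetal pancreas and immortalized with telomerase (hTERT) and large T antigen, both excisable. Cells of the senescent group had received 4-hydroxytamoxifen for 3 weeks, which activates the recombinase they carry and removes both transgenes. Cells of the non-senescent group, labelled as controls of the same wild-type genotype, had not. Drug exposure, loss of hTERT and loss of the T antigen therefore cannot be told apart here, and the T antigen binds p53 and Rb in the control cells. Each mark was measured in 3 senescent and 3 non-senescent libraries, and nothing in the labels says whether these came from separate cultures, so p-values measure the spread between these libraries.

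As background, glucose enters beta cells through facilitative transporters of the GLUT family. SLC2A1 encodes GLUT1, the transporter most used by human beta cells, SLC2A2 encodes the high-capacity GLUT2 and SLC2A3 the high-affinity GLUT3. Phosphorylation of glucose then traps it in the cell and commits it to metabolism. HK2 encodes a high-affinity hexokinase that mature beta cells keep low, and G6PC2 encodes an islet glucose-6-phosphatase that works against this step. PFKFB2 makes and removes the allosteric activator of phosphofructokinase, and PC (pyruvate carboxylase) feeds pyruvate carbon into the citric acid cycle. MLXIPL encodes ChREBP, a transcription factor that is activated by glucose and binds paired E-boxes with its partner MLX. TXNIP, an arrestin-fold protein that inhibits thioredoxin and lowers glucose uptake, is one of its best known target genes.

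Sequences that carry the sites discussed here were taken from the reference, with the bases that match the searched letters in capitals. The paired site through which ChREBP is known to act lies in the TXNIP promoter. A search for 2 copies of CACGNG with 5 bases between them, in the 250 bases before the start site of 35116 RefSeq promoters (GRCh38.p14), found it in 16 promoters (0.0456%), TXNIP among them. The single E-box CACGTG, a palindrome, was found in 6.34% of the promoters. Of the 9 genes, 7 had an entry (11 promoters, SLC2A3 and PFKFB2 having none), and of these HK2 carried CACGTG, 2 times before its downstream start site. All 3 stretches lie before the start site of the promoter searched, and positions count bases upstream of it. Both HK2 stretches lie inside the gene, downstream of its main start site (chr2:74834127).
TXNIP, positions 88 to 72, chr1:145996621-145996697, minus strand: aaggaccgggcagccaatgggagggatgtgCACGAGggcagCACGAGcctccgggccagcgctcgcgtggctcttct
HK2, positions 194 to 189, chr2:74834946-74835011, plus strand: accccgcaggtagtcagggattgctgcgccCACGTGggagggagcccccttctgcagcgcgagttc
HK2, positions 149 to 144, chr2:74834991-74835056, plus strand: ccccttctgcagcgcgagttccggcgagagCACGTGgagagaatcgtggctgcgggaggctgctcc

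The CTCF core CCANNAGNNGGC, searched exactly on both strands in hg38, was present in 23.6% of all CTCF peaks and in 3.40% of regions of the same length 10 kb away. It was present in 5 of the 27 CTCF peaks of these genes (18.5%), which are shown because they hold the exact core. Most CTCF peaks lack it, so its absence does not mark a peak as without a CTCF site. The stretches at SLC2A3 and TXNIP belong to the CTCF peak that, among those assigned to the gene, is closest to its main start site, and the other 3 were added after their values were seen. The SLC2A1 peak held 2 matches, of which 1 is given.
SLC2A1, chr1:42923093-42923144, plus strand: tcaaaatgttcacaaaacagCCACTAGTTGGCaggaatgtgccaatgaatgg
SLC2A3, chr12:7995381-7995432, minus strand: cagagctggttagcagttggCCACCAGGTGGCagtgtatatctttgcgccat
PFKFB2, chr1:207077961-207078012, minus strand: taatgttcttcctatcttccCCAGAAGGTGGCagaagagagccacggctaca
TXNIP, chr1:146007422-146007473, minus strand: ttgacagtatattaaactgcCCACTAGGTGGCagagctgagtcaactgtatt
MLXIPL, chr7:73629397-73629448, plus strand: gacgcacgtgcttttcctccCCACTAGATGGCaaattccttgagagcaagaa

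The deposited tables give for each peak a mean read count over the 6 libraries, divided by library size factors, and a log2 fold change of senescent over non-senescent cells with its standard error (SE), but no value of a single library and hence no library depth. The mean counts add up to 19239499 over the H3K27ac table and to 6136424 over the CTCF table. The header does not name the direction of the fold change. The H3K27ac promoter peak of MKI67, a proliferation marker, had a log2 fold change of -2.29 (SE 0.14) and that of CDKN1A, which encodes p21, one of 2.50 (SE 0.16), so positive values were read as higher in senescent cells, and the CTCF table was read the same way without such a check. The beta-cell label was examined through H3K27ac promoter peaks. Such a peak was present at 13059 of all 20020 protein-coding genes, of which 3.15% were gained and 8.94% lost. It was present at 11 of 12 beta-cell markers (SIX3 had none), with mean counts of 43.6 (MAFA) to 16247 (PAX6). Of the beta-cell markers, 1 (IAPP) was gained and 0 were lost. Peaks were present at 4 of 6 markers of other islet endocrine cells, where SST, HHEX and GHRL were lost and GCG and PPY had no peak. Of the markers of other pancreatic and stromal cells, 1 of 4 acinar, 1 of 4 ductal, 0 of 4 mesenchymal, 0 of 3 endothelial and 1 of 3 immune had one. The ductal one, KRT19, was lost, and the immune one is a peak that CD68 shares with other genes.

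H3K27ac was lost at upstream peaks of the transporter genes SLC2A1 and SLC2A2, whose promoter peaks were higher by under 1.5-fold. Calls of gain and loss needed an adjusted p below 0.05 in the authors' DESeq2 test together with more than a 1.5-fold difference. Under this rule 1 H3K27ac peak of the 9 genes was gained, a weak one at SLC2A2, and 4 were lost, 2 at SLC2A1, 1 at SLC2A2 and 1 inside PC. Over all peaks, 9.47% were gained and 13.1% were lost, so 1 and 4 of 28 is close to the background. The median log2 fold change over the 28 peaks was -0.05, beside 0.01 over all peaks (interquartile range -0.39 to 0.34), and 13 were higher and 15 lower. A further 7 peaks passed the adjusted p without reaching the fold threshold, 5 higher and 2 lower, and 6 of these 7 were promoter peaks. By class, the median was 0.21 over the 9 promoter peaks (0.03 over all 14007 promoter peaks), -0.03 over the 11 gene body peaks (0.05 over 22797) and -0.24 over the 8 distal peaks. All 8 distal peaks belong to SLC2A1 (4) and SLC2A2 (4), and 3 of them are the lost upstream peaks already counted. The distal median therefore describes 2 loci and not the 9 genes. A pair of the 8 lie in another gene, and the median over the other 6 was -0.54, beside -0.13 over the 7677 distal peaks outside genes in the table. Since the cells were pooled, a smaller share of cells that carry the mark and less mark in each cell cannot be told apart.

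**Figure D1:**
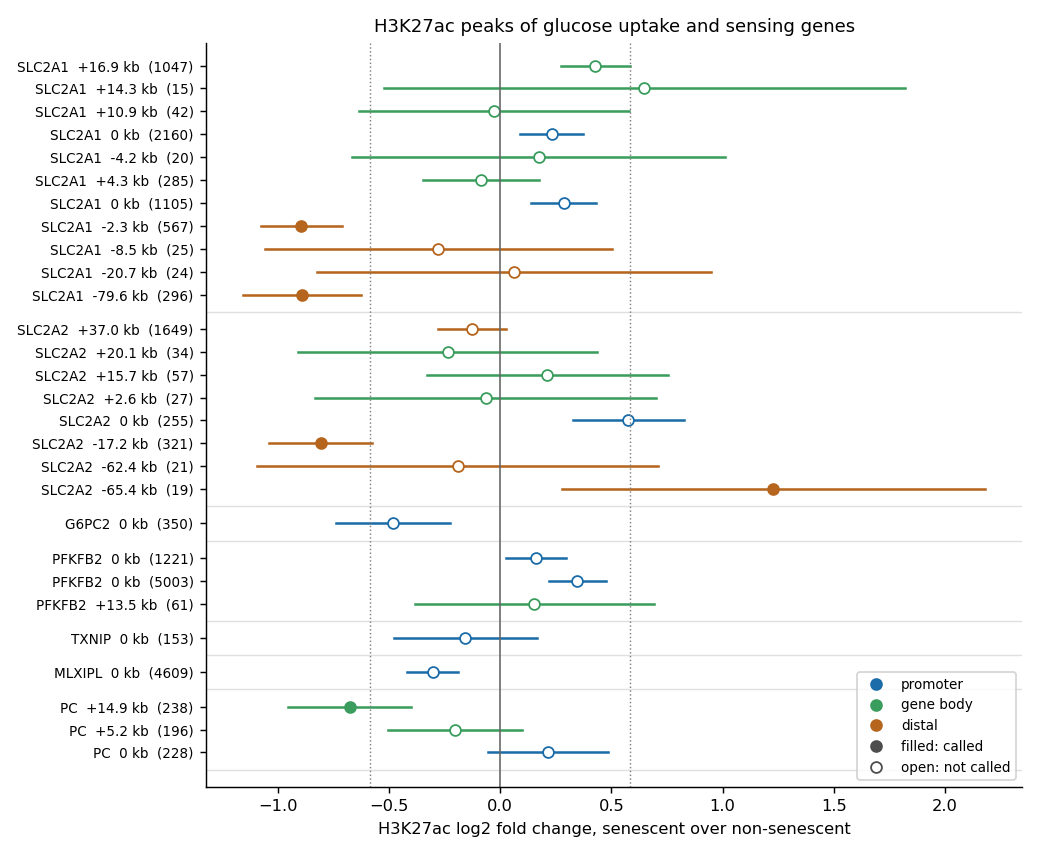
H3K27ac log2 fold change (senescent over non-senescent, x axis) of all 28 H3K27ac peaks of the 9 genes, with 95% confidence intervals as bars. Each row gives the gene, the distance in kb to the nearest annotated start site (negative is upstream, 0 is over it) and, in brackets, the mean normalized read count. Filled circles are called peaks and dotted lines mark a fold change of 1.5. The 4 filled circles on the left lie between -0.90 and -0.68, and the 1 on the right has a mean count of 19.2 and a wide interval.

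SLC2A1 (chr1:42925353-42958893, minus strand) had the most H3K27ac peaks, 11, which covered 33457 bp. The peak over its main start site (chr1:42955281-42960120) had a mean count of 1105, and the fold change and mean imply about 996 counts in non-senescent and 1214 in senescent cells. Its log2 fold change was 0.29 (SE 0.07, adjusted p = 5.92e-04), which passed the test but not the fold threshold. A domain of 12032 bp over a start site further inside the gene (chr1:42932920-42944951) had a mean count of 2160 and a log2 fold change of 0.23 (SE 0.07, adjusted p = 0.005). A peak that overlaps the last exon lies for the most part beyond the end of the gene (chr1:42922366-42926333, mean count 1047). It differed most among the 3 at 0.43 (SE 0.08, adjusted p = 7.03e-07). All 3 were thus higher in senescent cells by under 1.5-fold.

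Upstream of SLC2A1 the mark was lost at 2 of the 4 distal peaks. The peak that starts 2291 bp before the gene (chr1:42961159-42964738) had a mean count of 567, with about 738 counts implied in non-senescent and 396 in senescent cells. It fell by 46.2% (log2 fold change -0.90, SE 0.09, 95% interval -1.08 to -0.71, adjusted p = 3.38e-20). A peak 79552 bp upstream (chr1:43038420-43040863, mean count 296) fell by 46.1% (log2 fold change -0.89, SE 0.13, adjusted p = 5.19e-10), from about 385 to 207 counts. The intervals of both lost peaks lie below 0 and that of the promoter peak, 1038 bp away from the nearer one, lies above it (0.14 to 0.43). The other 6 peaks of the gene were not called, with log2 fold changes of -0.28 to 0.65 and mean counts of 14.9 to 285. They include the 2 distal peaks between the lost ones, 8466 and 20729 bp upstream. These had -0.28 and 0.06 on mean counts of 24.9 and 23.6.

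SLC2A2 (chr3:170996347-171026743, minus strand) showed the same arrangement of a higher promoter peak and a lost upstream H3K27ac peak. Its promoter peak (chr3:171025610-171028996, mean count 255) had a log2 fold change of 0.58 (SE 0.13, adjusted p = 4.40e-05), or 1.49-fold, just under the fold threshold of 1.5. About 205 counts were implied in non-senescent and 305 in senescent cells. The distal peak 17244 bp upstream (chr3:171043964-171047049, mean count 321) fell by 42.9% (log2 fold change -0.81, SE 0.12, adjusted p = 1.13e-10), from about 408 to 233 counts. The gained peak, 65410 bp upstream in TNIK, a kinase gene (chr3:171092130-171092629, mean count 19.2), rose 2.34-fold (log2 fold change 1.23, SE 0.49, adjusted p = 0.032) on about 11.5 and 26.9 counts. This call was lost at an adjusted p under 0.01, and with distal peaks limited to 50 kb the peak no longer belongs to the gene. The strongest peak of the locus, a domain 45101 bp downstream of the main start site (chr3:170974729-170981619, mean count 1649), was not called, at -0.13 (SE 0.08, adjusted p = 0.189). The other 4 peaks ranged from -0.24 to 0.21.

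**Figure D2:**
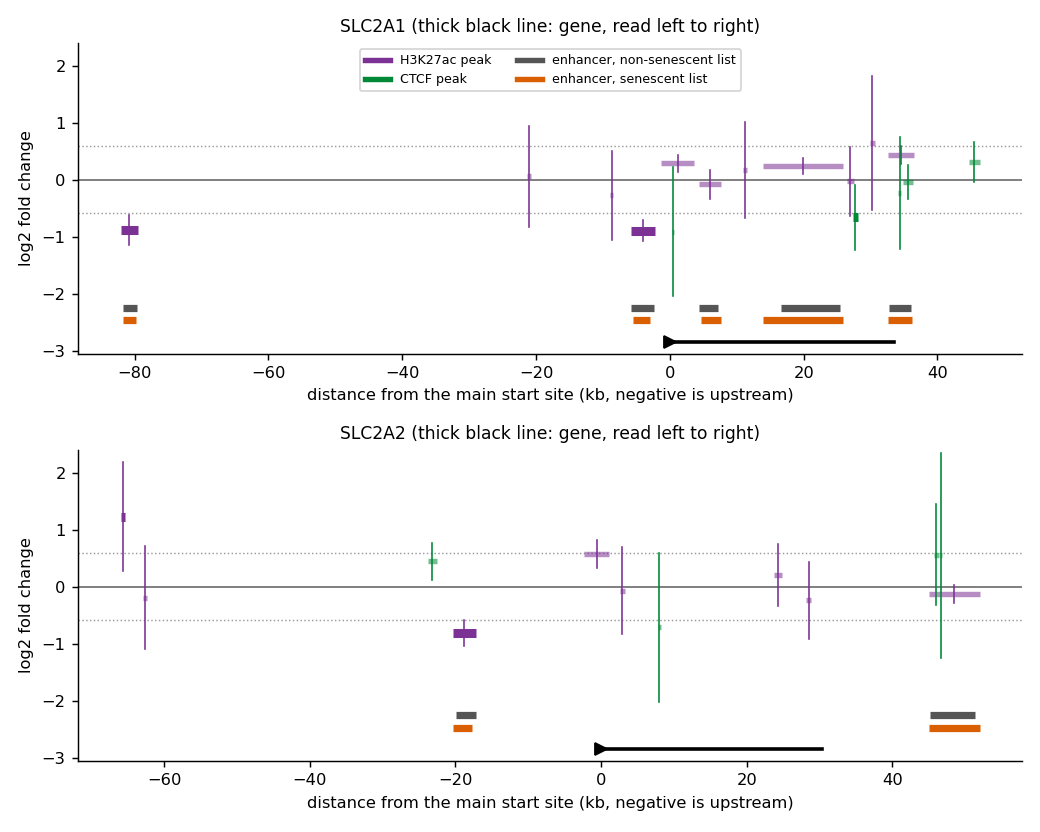
Log2 fold change (senescent over non-senescent, y axis) of H3K27ac peaks (purple) and CTCF peaks (green) against distance from the main start site in kb (x axis, negative is upstream) at SLC2A1 (top) and SLC2A2 (bottom). Horizontal bars span each peak, thin vertical lines are 95% intervals, thick dark bars are called peaks, and the bottom tracks show listed enhancers of each state and the gene. The lost upstream H3K27ac peaks at SLC2A1 and SLC2A2 lie near -0.8 to -0.9 while the peaks over the start sites lie above 0.

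SLC2A3, the third transporter, had no H3K27ac peak, and the closest one in the table lay 89443 bp from its main start site, next to FOXJ2. HK2 had none either, with the closest peak 124150 bp away at POLE4. Absence from the table says only that no peak was listed there. SLC2A14, a near-identical copy, lies on the same chromosome. Its promoter CTCF peak (chr12:7874674-7875254) is outside the GENCODE 44 span of SLC2A3 (chr12:7919230-8019007), and reads from the 2 genes may not be told apart by mapping.

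At the enzymes downstream of uptake, the directions of H3K27ac at promoters differed. G6PC2 (chr2:168901291-168910000) had 1 peak, at its promoter (chr2:168899694-168902722), with a mean count of 350, or about 408 in non-senescent and 292 in senescent cells. Its log2 fold change was -0.48 (SE 0.13, adjusted p = 0.0011), which passed the test at under 1.5-fold. The peak lies inside the annotated span of SPC25, a kinetochore gene used in mitosis, so the mark cannot be given to either gene alone.

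PFKFB2 (chr1:207034366-207081024) had the strongest peak of the set. It covers 12093 bp over the main start site (chr1:207048947-207061039), shared with the neighbouring deubiquitinase gene YOD1, and its mean count of 5003 stands at percentile 99.0 of all promoter peaks. Its log2 fold change was 0.35 (SE 0.07, adjusted p = 8.94e-07), with about 4404 and 5602 counts implied in non-senescent and senescent cells. The peak over the upstream start site, shared with C1orf116 (chr1:207029519-207034505, mean count 1221), had 0.16 (SE 0.07, adjusted p = 0.053), and a weak gene body peak (mean count 61.0) had 0.15 (SE 0.27).

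PC (chr11:66848417-66958386, minus strand) had 3 H3K27ac peaks. The promoter peak (chr11:66957306-66959400, mean count 228) was not called, at 0.21 (SE 0.14, adjusted p = 0.215). The peak 5214 bp into the gene (chr11:66951156-66953158, mean count 196) was not called either, at -0.20 (SE 0.15, adjusted p = 0.3). The lost peak (chr11:66855372-66857107, mean count 238) fell by 37.4% (log2 fold change -0.68, SE 0.14, adjusted p = 1.13e-05), from about 293 to 183 counts. It lies 101276 bp from the main start site of PC, in an intron, and at the promoter of LRFN4, a neuronal adhesion gene. Its bases were 66.8% G or C, and with the table's trend of fold change with GC content removed the value was -0.40, under the fold threshold, so this call ended.

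The glucose-sensing pair showed no called H3K27ac change. MLXIPL (chr7:73593194-73624543, minus strand) carried a single domain of 17979 bp from its start site into the gene (chr7:73607214-73625192). Its mean count of 4609 stands at percentile 98.8 of promoter peaks, with about 5093 counts implied in non-senescent and 4124 in senescent cells. The log2 fold change was -0.30 (SE 0.06, 95% interval -0.42 to -0.19, adjusted p = 1.56e-06), past the adjusted p but a decrease of under 1.5-fold. TXNIP (chr1:145992435-145996579, minus strand) had a narrow promoter peak of 1330 bp (chr1:145996172-145997501, mean count 153) that covers the paired E-box shown above. Its log2 fold change was -0.16 (SE 0.16, 95% interval -0.48 to 0.17, adjusted p = 0.474), and the interval leaves room for changes of either sign.

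Levels are compared per length of peak. Among the peaks over main start sites, the mean count per kb of peak was 414 at PFKFB2, 256 at MLXIPL, 228 at SLC2A1, 116 at G6PC2, 115 at TXNIP, 109 at PC and 75.2 at SLC2A2. Peaks of 10 kb or more are 809 of the table (1.57%), of which 5.07% were gained and 2.47% lost, and 3 of them belong to these genes (SLC2A1, PFKFB2 and MLXIPL), none called. Precision followed the counts: the 9 H3K27ac peaks with a mean count below 50 had SEs of 0.31 to 0.60, and the other 19 had SEs of at most 0.28.

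**Figure D3:**
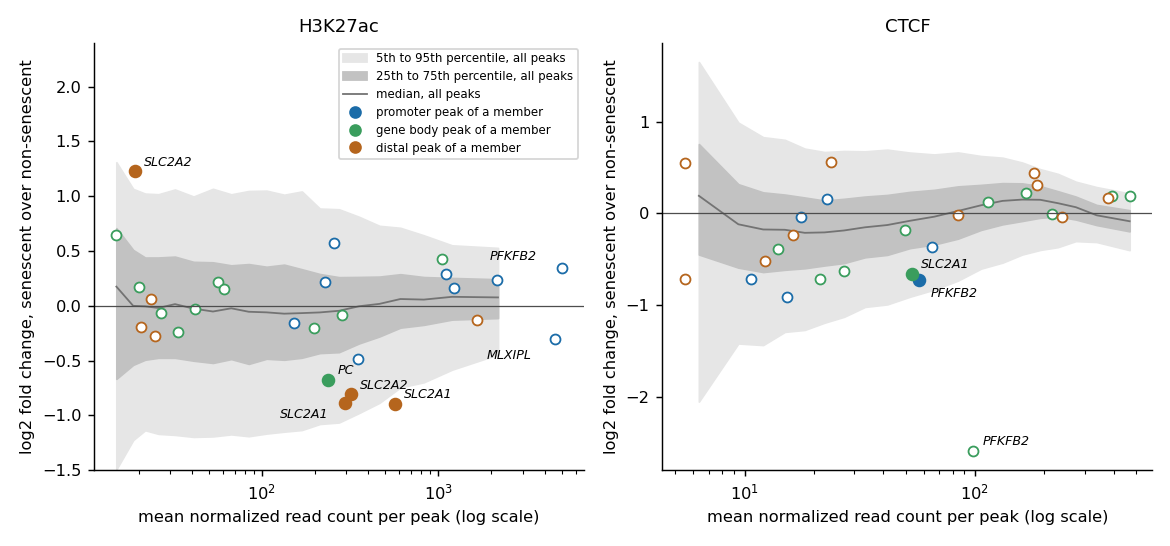
Log2 fold change (senescent over non-senescent, y axis) against the mean normalized read count per peak (x axis, log scale) for H3K27ac (left) and CTCF (right). Grey bands and line give percentiles over all peaks of each table in 20 bins of mean count, circles are peaks of the 9 genes by class, and filled circles are called. The lost SLC2A1 peak with a mean count of 567 lies below the 5th percentile of peaks of like count and the other lost H3K27ac peaks lie inside the light band, PFKFB2 and MLXIPL are the strongest H3K27ac peaks, and the CTCF peak at -2.59 is the AT-rich one inside PFKFB2.

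Of the 28 H3K27ac peaks, 8 overlapped an enhancer listed for non-senescent cells and 9 one listed for senescent cells (9 in either list). SLC2A1 had 5 listed enhancers in each state, SLC2A2 had 2 and PC had 1, and each of these overlapped its counterpart of the other state. Within this group 3 peaks were lost and 0 gained, 7 were lower and 2 higher, beside 14.1% gained and 19.2% lost among the 17156 H3K27ac peaks of the table in a listed enhancer. The 3 lost ones kept a listed enhancer in senescent cells, of 2614 bp and 1917 bp at SLC2A1 and 2591 bp at SLC2A2. One enhancer was listed in senescent cells only, 12690 bp into MLXIPL (chr7:73609819-73611802), inside the domain whose H3K27ac was lower at -0.30. The H3K27ac libraries also went into these lists, so the lists and the peak values are not independent. None of the 2435 regions listed for senescence-specific binding of Rb, the retinoblastoma protein, was assigned to the 9 genes. With 2435 regions beside 20020 protein-coding genes, this says little about Rb at so few genes.

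CTCF was called changed at 2 peaks of these genes. The rule for CTCF was an adjusted p under 0.2 with a fold change above 1.5, and 8 of the 27 peaks, with mean counts of 5.50 to 17.5, came without an adjusted p and stayed uncalled. By the authors' DESeq2 test, 0 of the 27 peaks were gained and 2 were lost, and at an unadjusted p under 0.05 there were 1 higher and 2 lower. Only the 19 peaks with an adjusted p could be called, and the background, 2.99% gained and 4.28% lost, is over the 39485 such peaks of the table. The median log2 fold change was -0.04, beside -0.01 over all peaks, and single values ran from -2.59 to 0.56 with SEs of 0.12 to 2.12.

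Both lost CTCF peaks had mean counts close to the median of all CTCF peaks, 58.6. One lies at the main PFKFB2 start site (chr1:207053041-207053904, mean count 57.4) and fell by 39.8% (log2 fold change -0.73, SE 0.29, adjusted p = 0.129), from about 71.7 to 43.2 counts. It sits inside the strong H3K27ac domain, whose own log2 fold change was 0.35. The other lies in the body of SLC2A1, over exon and intron (chr1:42930777-42931558, mean count 53.4), and fell by 36.7% (log2 fold change -0.66, SE 0.29, adjusted p = 0.19), from about 65.4 to 41.4 counts. Neither held the exact core motif. Both calls ended at an adjusted p under 0.05 and after the trend with GC content was removed, when the values were -0.52 and -0.49. The 2 peaks hold 59.7% and 58.3% G or C.

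The strong CTCF peaks of the set were not called. PFKFB2 held the strongest (chr1:207076877-207078899, mean count 472) near the end of the gene, at 0.19 (SE 0.14, adjusted p = 0.467), and a second one 2190 bp before its main start site, over the YOD1 promoter (chr1:207048976-207051085, mean count 391), at 0.20 (SE 0.12, adjusted p = 0.377). The peak 10128 bp upstream of TXNIP (chr1:146006707-146008650, mean count 378) had 0.16 (SE 0.14, adjusted p = 0.526). The strongest at SLC2A1 (chr1:42922489-42924086, mean count 240), by the end of the gene, had -0.04 (SE 0.15), and at MLXIPL a peak 16574 bp into the gene (chr7:73606127-73607918, mean count 216) had 0.00 (SE 0.15). The 5 peaks with the core motif had mean counts of 84.8 to 472 (median 240) and log2 fold changes of -0.04 to 0.19. The 22 without it had mean counts of 5.50 to 391 (median 25.3) and log2 fold changes of -2.59 to 0.56. These 2 ranges are not at like counts, so they do not set the groups apart. The strong PFKFB2 peak at 0.20 and the MLXIPL peak at 0.00 are among those without the core.

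At SLC2A2 the CTCF peak 22604 bp upstream (chr3:171049324-171050538, mean count 180), between the lost and the gained H3K27ac peaks, had a log2 fold change of 0.45 (SE 0.17, adjusted p = 0.106), past the adjusted p threshold at 1.36-fold. The promoter peak of SLC2A2, over a second start site, was too weak for a call (mean count 10.7). SLC2A3 (minus strand) had 1 CTCF peak (chr12:7994884-7995886, mean count 114), at 0.13 (SE 0.20, adjusted p = 0.765). It lies inside the annotated span of the gene but 58697 bp upstream of the main start site. The CTCF peak closest to that start site, 28742 bp away, was assigned to SLC2A14. HK2 had 3, of which the promoter peak (chr2:74836225-74837054, mean count 65.0) was at -0.37 (SE 0.26, adjusted p = 0.454) and the strongest (chr2:74875798-74877186, mean count 166) at 0.22 (SE 0.17, adjusted p = 0.503). PC had 2 weak ones, the promoter peak (mean count 17.5) at -0.04 (SE 0.54) and one in the gene (mean count 21.3) at -0.71 (SE 0.49). The promoter peaks at the upstream PFKFB2 start site (mean count 22.8) and at SLC2A1 (mean count 15.3) had 0.16 (SE 0.50) and -0.91 (SE 0.58). G6PC2 had none, and the closest lay 18982 bp from its start site at ABCB11. The value of -2.59 belonged to a peak of 249 bp inside PFKFB2 with 6.43% G or C and an SE of 2.12, and 14 of the 27 CTCF peaks overlapped an H3K27ac peak of the same gene.

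**Figure D4:**
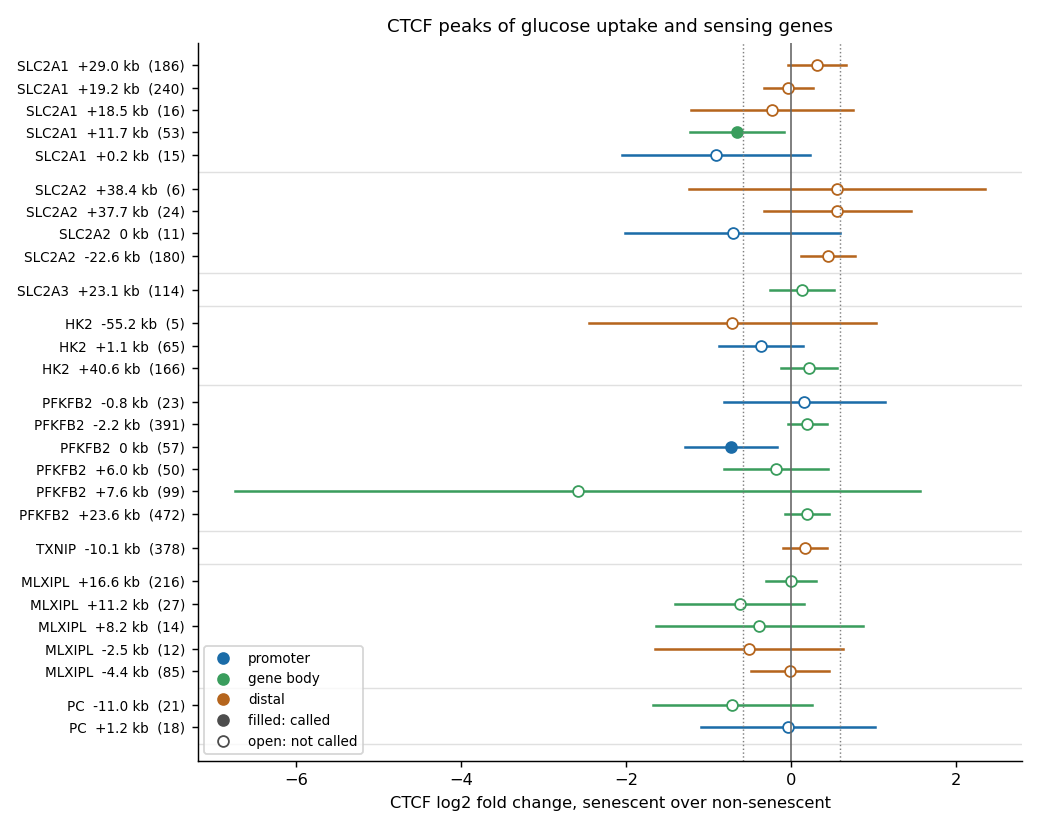
CTCF log2 fold change (senescent over non-senescent, x axis) of all 27 CTCF peaks of the 9 genes with 95% confidence intervals. Each row gives the gene, the distance in kb to the nearest annotated start site and, in brackets, the mean normalized read count. The 2 filled circles are the lost peaks in SLC2A1 and PFKFB2, dotted lines mark a fold change of 1.5, and the widest interval belongs to the AT-rich PFKFB2 peak.

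The wider pathway was read from a list of 63 other genes of glucose handling, each taken through its strongest promoter peak. H3K27ac promoter peaks were present at 52 of them, of which 3 were gained and 5 lost, beside 3.15% gained and 8.94% lost among the promoter peaks of 13059 protein-coding genes. The median log2 fold change was 0.06, beside 0.04 over those genes. All 14 other glycolysis enzymes of the list had a peak, and 2 of these were gained and 0 lost. PFKL, the liver-type phosphofructokinase that the product of PFKFB2 activates, rose by a log2 fold change of 0.84 (SE 0.07, adjusted p = 8.22e-33, mean count 1677) and GPI, which follows the hexokinase step, by 0.69 (SE 0.10, adjusted p = 2.41e-11). ARRDC4, an arrestin relative of TXNIP and also a ChREBP target, rose by 0.65 (SE 0.07, adjusted p = 2.20e-17, mean count 2681). It was the 1 gained among the 5 ChREBP partners and targets, of which 0 were lost.

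The share lost, 5 of 52, is close to that background, and the classes are described without a test. Of 18 genes with a peak in the pyruvate, lactate and anaplerosis class, 3 were lost and 0 gained, and of 4 in the glucose-6-phosphatase and gluconeogenesis class 2 were lost and 0 gained. SLC16A1, the lactate and pyruvate transporter that beta cells normally keep silent, had -1.40 (SE 0.20, adjusted p = 2.51e-11) and LDHA, the lactate dehydrogenase they likewise keep low, -0.68 (SE 0.11, adjusted p = 1.61e-08). PCK2, the mitochondrial phosphoenolpyruvate carboxykinase, had -0.87 (SE 0.11, adjusted p = 8.86e-14), and its peak is shared with NRL. ME1 and FBP1 were the other 2 lost. The transporter class (6 of 11 genes with a peak) and the hexokinase class (2 of 4) had 0 gained and 0 lost. CTCF promoter peaks were present at 38 of the 63 genes. By the authors' DESeq2 test, 0 were gained and 0 lost, with 0 higher and 4 lower at an unadjusted p under 0.05. The background is 0.585% gained and 5.49% lost of 7866 genes whose peak had an adjusted p. The peaks of HK3, ALDOC, PCK2, LDHB, PDK4, PDP1 and ME3 had none and could not be called. The median log2 fold change over the 38 was -0.12, beside -0.17 over all genes with such a peak.

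**Figure D5:**
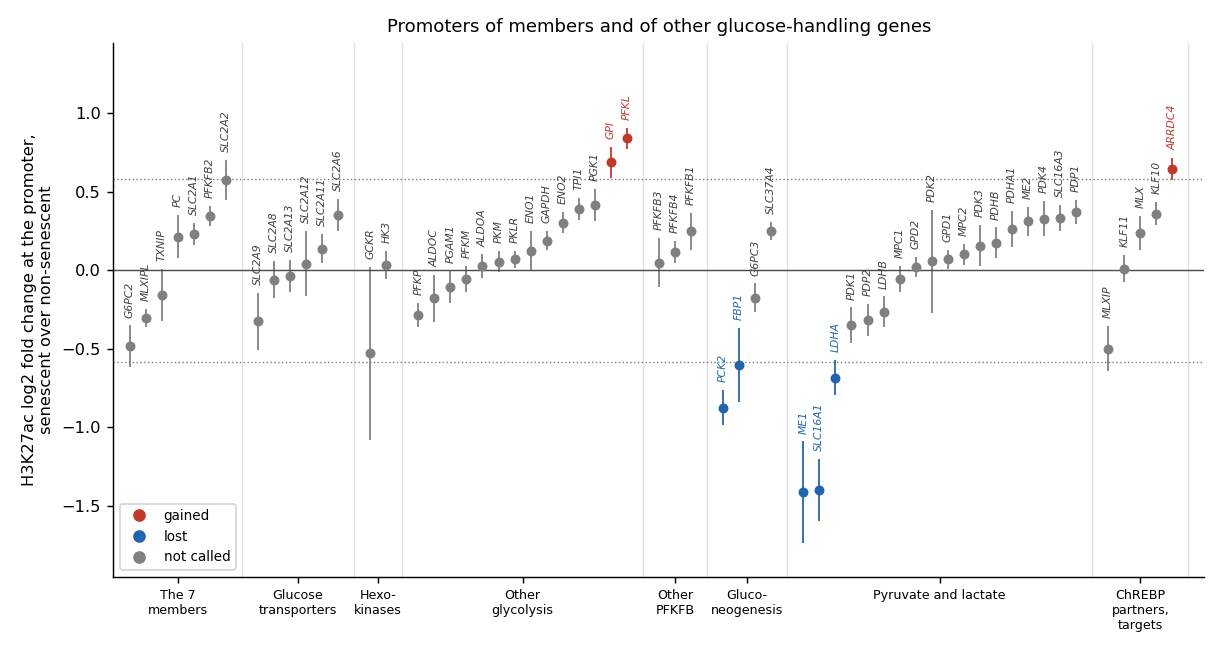
H3K27ac log2 fold change at the strongest promoter peak of each gene (senescent over non-senescent, y axis, bars are standard errors) for the 7 of the 9 genes with such a peak and for the 52 other glucose-handling genes, by class along the x axis. Red points are gained, blue are lost, grey are not called, and dotted lines mark a fold change of 1.5. None of the 7 is called, and SLC2A2 lies at 0.58, just under the upper line.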

How the data were processed

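H3K27ac and CTCF chromatin immunoprecipitation sequencing (3 senescent and 3 non-senescent libraries each) was used from a series of 40 libraries, grouped by antibody and treatment from the labels. As the study's methods state, the authors had trimmed the reads and aligned them to hg38 with Bowtie2, had called peaks against input with HOMER (H3K27ac) or MACS2 (CTCF) and had compared raw counts in peaks with DESeq2. Tool versions are not given in the sources used here, nor how peaks of replicates were joined. The methods describe a motif filter on CTCF peaks before the test, but the deposited table gives more called loci at these thresholds than the study states for loci with the motif, so it was read as not limited to the filtered set. The deposited signal of a peak is its read count, scaled by library size factors and averaged over the libraries. The deposited log2 fold changes, their standard errors on the log2 scale, the Wald score, and the raw and Benjamini-Hochberg adjusted p-values all come from the authors' own comparison, and the text gives these deposited values for single peaks, since the tables hold no values per library and no model could be refitted. Because counts were scaled by size factors, a shift of a mark across the whole genome would not show.

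Thresholds, peak classes, counts, medians, intervals (95%, log2 fold change with its standard error), implied state means (from the mean count and fold change, with equal numbers of libraries), GC content and motif matches were computed with Python 3.11.15, pandas 2.3.3, NumPy 2.4.6, SciPy 1.17.1 and pyfaidx 0.9.0.4, and figures with matplotlib 3.10.9. Regions overlapped by at least 1 bp. Code was tested on simulated data. All 24 chromosome names matched hg38 and 0 peaks ran beyond a chromosome end. All promoter peaks, called peaks and the strongest uncalled peak of each gene are named. Of the other pathway genes, those named are at most 3 called ones per direction and mark with the smallest adjusted p, and LDHA (ME1 and FBP1 only complete their count). A pair of genes of the pathway list is not reported here and is left out of its counts. The 9 genes, the lists and the rules were chosen with earlier results of these data known. H3K4me1, Rb and input signal was not analysed here.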

Additional observations from a re-analysis of the deposited data

How the results depend on the processing

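For H3K27ac, peaks gained numbered 6 with no fold change threshold and 0 at an adjusted p under 0.01, in a test against a fold change of 1.5, with a mean count of at least 50 or with distal peaks within 50 kb. Peaks lost numbered 0 at a fold change above 2 and 1 in the test against 1.5 (the SLC2A1 peak 2291 bp upstream). For CTCF, peaks gained numbered 1 with no fold change threshold. CTCF peaks lost numbered 0 at a fold change above 2, at an adjusted p under 0.05, in the test against 1.5 and with the GC trend removed, and 1 with p-values adjusted anew or fold changes recentred on the median of all peaks. At the other pathway promoters, gained and lost numbered 0 and 2 at a fold change above 2, and 14 and 10 with no threshold. The median CTCF log2 fold change, with no test, was -0.04 and turned to 0.06 with a mean count of at least 50 and to 0.01 with the GC trend removed. Both values lie among the 47 counts and medians that stayed within 1.5 times or within the typical standard error. No called peak changed sign. No paired analysis was possible because the deposited tables hold no values per library, and for the same reason leaving out each replicate was not run. The 8 CTCF peaks without an adjusted p have mean counts of 5.50 to 17.5 and could not be called, and library depth is not given by the tables.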
